A study of Homo sapiens with 10 samples.

Results

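The genes described here are 41 enzymes that add methyl groups to histone lysines or remove them: 25 methyltransferases and 16 demethylases. They were chosen by name, from a list of symbols for these enzyme families, out of 59204 human genes in the count tables, of which 30316 had a read. All 41 were found, each under 1 identifier, and all reached the mean of 20 total reads that the tests required. SETD7 was the lowest, at a mean of 20.8 reads, and it was the one member left out of the tests on labelled RNA. The cells were K562, an established line from a chronic myeloid leukaemia. They were fed 30 µM 4-thiouridine for 12 h, with fresh medium every 3 h, so that newly made RNA took up the nucleoside. They were then chased in 3 mM uridine with DMSO, with 1 µM JQ1, which blocks the bromodomains of BET proteins, or with 1 µM AZ-5576, an inhibitor of the kinase CDK9. Libraries of RNA 3′ ends were made at 0, 2, 4 and 8 h. The 0 h library was shared, so the groups were 0 h, DMSO at 2, 4 and 8 h, JQ1 at 2, 4 and 8 h, and AZ-5576 at 2, 4 and 8 h, with 1 library in each of the 10.

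Histone methylation is written by SET domain enzymes and by DOT1L, and is erased by flavin-dependent oxidases of the LSD1 family and by Jumonji oxygenases. Methylation of H3K4 marks promoters and enhancers. Methylation of H3K36 and H3K79 is laid down along genes that are being transcribed. H3K9, H3K27 and H4K20 methylation is tied to silent or compacted chromatin. Several of these enzymes matter in myeloid leukaemia, among them KMT2A, which is broken by translocations, and DOT1L, EZH2 and KDM1A, which are drug targets. BET proteins and CDK9 both act on the release of paused RNA polymerase II.

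Sequences are shown for the promoters of the members at the 2 ends of the JQ1 response described below, and for short sites near the ends of transcripts that lost their label fast or slowly. The promoters are RefSeq sequence (GRCh38.p14) from 250 bases before to 50 bases after a gene's first listed start, 300 bases in all; that start can differ from the gene start of the GENCODE positions given further on. The table held 38 of the 41 members. SETDB1 and KDM6B had the lowest JQ1 values, KDM3A and KDM4B the highest. Capitals mark a match, on either strand, of the E-box with letters CACGTG, of the CCAAT box, of the GC box with letters GGGCGG, or of the TATA box with letters TATAAA, and matches of different motifs may overlap.
SETDB1, chr1:150926013-150926312, plus strand: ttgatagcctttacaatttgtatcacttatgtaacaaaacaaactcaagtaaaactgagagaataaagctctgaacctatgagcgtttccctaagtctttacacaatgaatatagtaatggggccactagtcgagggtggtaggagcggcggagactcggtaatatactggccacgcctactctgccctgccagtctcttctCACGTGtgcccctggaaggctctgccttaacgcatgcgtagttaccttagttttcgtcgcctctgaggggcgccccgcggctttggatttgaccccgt
KDM6B, chr17:7833967-7834266, plus strand: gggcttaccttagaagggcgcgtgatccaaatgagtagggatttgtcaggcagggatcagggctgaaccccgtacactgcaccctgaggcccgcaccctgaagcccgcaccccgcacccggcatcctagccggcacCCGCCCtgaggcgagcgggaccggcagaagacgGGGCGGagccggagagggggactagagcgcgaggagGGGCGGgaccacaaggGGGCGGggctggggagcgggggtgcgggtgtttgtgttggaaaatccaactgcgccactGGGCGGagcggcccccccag
KDM3A, chr2:86441121-86441420, plus strand: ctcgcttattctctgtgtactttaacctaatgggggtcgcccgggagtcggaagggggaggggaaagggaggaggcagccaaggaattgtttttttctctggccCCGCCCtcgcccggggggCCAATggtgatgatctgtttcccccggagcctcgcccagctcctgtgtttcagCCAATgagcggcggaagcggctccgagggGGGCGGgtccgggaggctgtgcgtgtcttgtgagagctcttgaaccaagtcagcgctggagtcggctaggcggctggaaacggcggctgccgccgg
KDM4B, chr19:4968863-4969162, plus strand: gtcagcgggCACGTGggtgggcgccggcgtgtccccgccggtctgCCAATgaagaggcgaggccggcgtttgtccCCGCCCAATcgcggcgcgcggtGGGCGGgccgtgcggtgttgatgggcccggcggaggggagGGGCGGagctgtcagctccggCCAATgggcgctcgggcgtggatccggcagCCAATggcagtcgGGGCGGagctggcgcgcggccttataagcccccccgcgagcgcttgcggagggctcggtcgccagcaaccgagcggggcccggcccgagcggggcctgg
CACGTG was present in 7 of 38 members (18.4%), SETDB1 and KDM4B among them, and in 10.9% of 8405 tested genes with a promoter in the table. GGGCGG was in 28 of 38 (73.7%, against 71.6% of those genes), CCAAT in 11 (28.9%, against 38.1%) and TATAAA in none (against 5.24%). The E-box was in 1 gene of each pair. CCAAT was in both KDM3A and KDM4B and in neither SETDB1 nor KDM6B, 4 genes picked for their JQ1 values, so this is a description of 4 windows.

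The transcript ends are the last 500 bases of 1 GENCODE v29 transcript per gene (GRCh38), searched on the RNA strand only, in 31 members and 6511 tested genes whose annotated 3′ untranslated part is long enough. TGTANATA, the octamer that Pumilio proteins bind, was in 10 of 31 members (32.3%, against 14.7% of the 6511 genes): KDM2A, KDM2B, KDM6A, KMT2A, KMT2C, KMT2D, KMT2E, NSD1, NSD3 and SETD1A. TATTTAT, the heptamer at the core of AU-rich elements, was in 6 of 31 (19.4%, against 15.6%). A stretch of 24 bases or fewer around the match is printed for a few carriers, picked after their label loss was seen, with the match in capitals. First come the 5 octamer carriers that lost their label fastest, then KMT2D, the slowest octamer carrier, which holds the heptamer as well, overlapping the octamer. The last are KMT5A and KDM4B, the heptamer carriers with the slowest loss that passed the test; KDM4C, slower still, did not pass it. The other carriers, KDM2B with both motifs among them, are not printed.
KMT2E, chr7:105113855-105113878, plus strand: tgacaaacTGTAAATActgcattt
KMT2E, chr7:105113920-105113943, plus strand: tatagcatTGTACATAtgacaagt
KDM2A, chr11:67257702-67257725, plus strand: agaaatatTGTAAATAtatatttt
KMT2C, chr7:152135162-152135185, minus strand: aaatcaatTGTATATAtttttctc
NSD1, chr5:177300156-177300179, plus strand: taattcttTGTATATAgaaaaaaa
KMT2A, chr11:118526717-118526740, plus strand: gtaaaaagTGTACATAgttgtaaa
KMT2D, chr12:49019061-49019084, minus strand: ttctgaacTGTACATAtttatgtt
KMT5A, chr12:123409329-123409351, plus strand: aattaaaaTATTTATtgccaggc
KDM4B, chr19:5153299-5153321, plus strand: gaaaatgcTATTTATattgtaaa
The matches are letters in a window of annotated sequence, and binding was not measured.

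Levels are given as reads per 1000000 fly reads, because RNA from fly S2 cells was added to the purified RNA at 5% as a common scale. Each RNA gives reads from its 3′ end, so levels are not divided by length. They are relative to the mass of purified RNA, and measure neither the number of cells nor the RNA per cell. Libraries held 10293371 to 16008906 total reads, 2031796 to 3868420 labelled reads and 1208073 to 2366155 fly reads. For each fly read there were 8.18 human reads at 0 h, 8.87 to 9.64 with DMSO, 7.77 to 7.94 with JQ1, and 9.01, 7.01 and 5.38 at 2, 4 and 8 h with AZ-5576. The K562 markers HBG1, HBG2 and HBZ were at 9155 reads or more in every library. Markers of other blood cells such as MS4A1, CD2 and CSF1R were at 2 reads or fewer in every library, whereas CD3D (171 to 560 reads) and EPCAM (374 to 902 reads) were present throughout. Genes on the other strand share the 3′ end of KMT2E (SRPK2, a mean of 92.4 reads beside 1590.9), SUV39H2 (DCLRE1C, 152.0 beside 95.1), NSD3 (DDHD2, 127.1 beside 268.1) and KDM4A (KDM4A-AS1, 20.5 beside 278.6), besides those named below, and copies of EZH2 (EZH2P1, 5.5 reads) and KMT5A (SETD8P1, 26.0 reads) were counted apart, so the counts of these members are uncertain to that degree.

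During the DMSO chase the levels of many of these RNAs went up. Each arm was given a straight line of log2 level against time from 1 shared start, and 20 of 41 members rose while none fell. With 1 library per condition, the spread in this test is the scatter of the libraries about the lines, not the spread between cultures. Of all 11797 genes tested, 24.5% rose. The steepest were 2 demethylases, KDM3A at 0.336 ± 0.041 log2 per hour (SE, adjusted p = 7.8e-06) and KDM1A at 0.303 ± 0.038 log2 per hour (SE, adjusted p = 1.0e-05), then KDM7A at 0.256 ± 0.045 log2 per hour (SE, adjusted p = 0.00027). The median over members was 0.098 log2 per hour, beside 0.046 over all genes. The H3K9 demethylases had 6 of 7 called, while the H3K27 methyltransferases, 2 genes, and the H3K36 demethylases, 2 genes, had none. With TMM scaling of the human reads in place of fly reads, 14 members rose and 3 fell, beside 17.05% and 15.4% of all genes. Without the 0 h library 11 rose, beside 16.7% of all genes, and without the 8 h DMSO library 6, beside 3.88%.

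Under AZ-5576 the total RNA of nearly all members went down against DMSO. The slope was lower than in DMSO for 39 of 41, all but EZH1 and SETD7, beside 73.3% of all genes. The median difference was -0.254 log2 per hour, beside -0.194 over all genes. KDM3A had the largest difference, -0.479 ± 0.049 log2 per hour (SE, adjusted p = 5.4e-08), and EZH1 the smallest, -0.085 ± 0.047 log2 per hour (SE, adjusted p = 0.11). Against the DMSO library of the same hour, members had median log2 ratios of -0.41, -1.01 and -2.09 for 2, 4 and 8 h, where all genes had -0.25, -0.67 and -1.63. With TMM scaling the median slope difference over all genes moved from -0.194 to -0.020. Then 22 members were lower and 1, EZH1, higher, beside 27.6% and 20.6% of all genes. Of the 39 calls, 28 held whichever of the 10 libraries was left out. With TMM scaling 8 of the 41 slope differences were above 0, those of KMT2A, KMT2E, SETD7, EHMT2, EZH1, EZH2, KMT5B and KDM4C.

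JQ1 lowered fewer of them. Its slope was below that of DMSO for 14 members and above it for none, beside 16.2% of all genes lower. The 14 were KMT2B, KMT2D, SETD1A, SUV39H1, SETDB1, NSD1, NSD2, DOT1L, KMT5A, KMT5B, KDM1A, KDM5C, KDM3B and KDM6B. The median over members was -0.081 log2 per hour and over all genes -0.051. Of the 14, only SETDB1 kept its call whichever of the 10 libraries was left out. The count was 8, 7 and 2 without DMSO at 2, 4 and 8 h, beside 12.5%, 13.4% and 1.44% of all genes. It was 6 and 5 without JQ1 at 4 and 8 h, beside 10.55% and 10%. With TMM scaling 5 were lower (KMT2D, SETDB1, NSD1, DOT1L and KMT5B) and 3 higher (EZH2, KDM3A and KDM4B), beside 7.7% and 5.5% of all genes. In that fit 23 of 41 values were below 0 in place of 37.

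A model that takes the average difference over 2, 4 and 8 h, and counts a growing difference as scatter, called far fewer. AZ-5576 lowered 1 of 41 members, KDM3A, beside 2.38% of all genes, although all 41 members were below 0 with a median of -1.17 (log2, all genes -0.82). That count was 0 without DMSO at 4 or 8 h, JQ1 at 2 or 4 h or AZ-5576 at 4 h, beside 0.0085% to 0.97% of all genes. It was 6 without DMSO at 2 h, 17 without JQ1 at 8 h, 37 without AZ-5576 at 2 h and 13 without AZ-5576 at 8 h. The shares of all genes lower in those fits were 12.5%, 21.9%, 57.6% and 14.2%, in the same order. JQ1 gave 0 calls by edgeR, beside 0% of all genes, with 5 of 41 members and 1081 of 11797 genes at an unadjusted p under 0.05. DESeq2 gave 0 members and 71 genes. Without AZ-5576 at 8 h, JQ1 had 5 members lower, beside 6.21% of all genes, and fitted with DMSO alone 20, beside 20.7%.

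**Figure D1:**
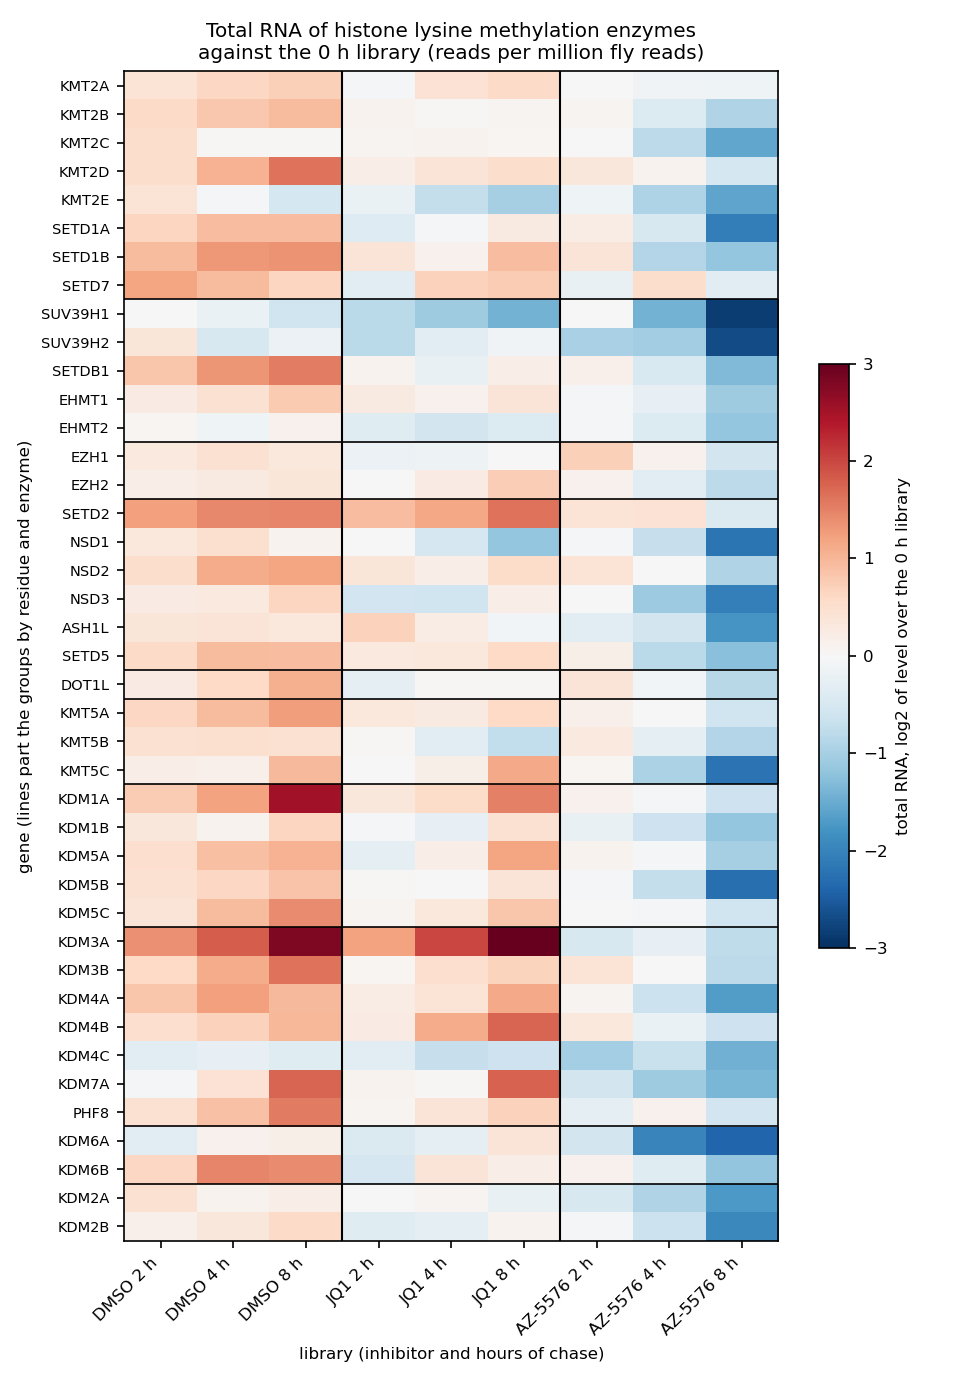
Total RNA of the 41 genes in each library as log2 of its level over the 0 h library (colour, levels in reads per 1000000 fly reads), with 1 row per gene and 1 column per library. The DMSO columns are mostly red, 35 of 41 genes are blue with AZ-5576 at 4 h and all 41 at 8 h, and KDM3A, past the colour limit of 3 with JQ1 at 8 h, goes from 37.8 at 0 h to 264 with DMSO and 471 with JQ1 at 8 h.

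**Figure D2:**
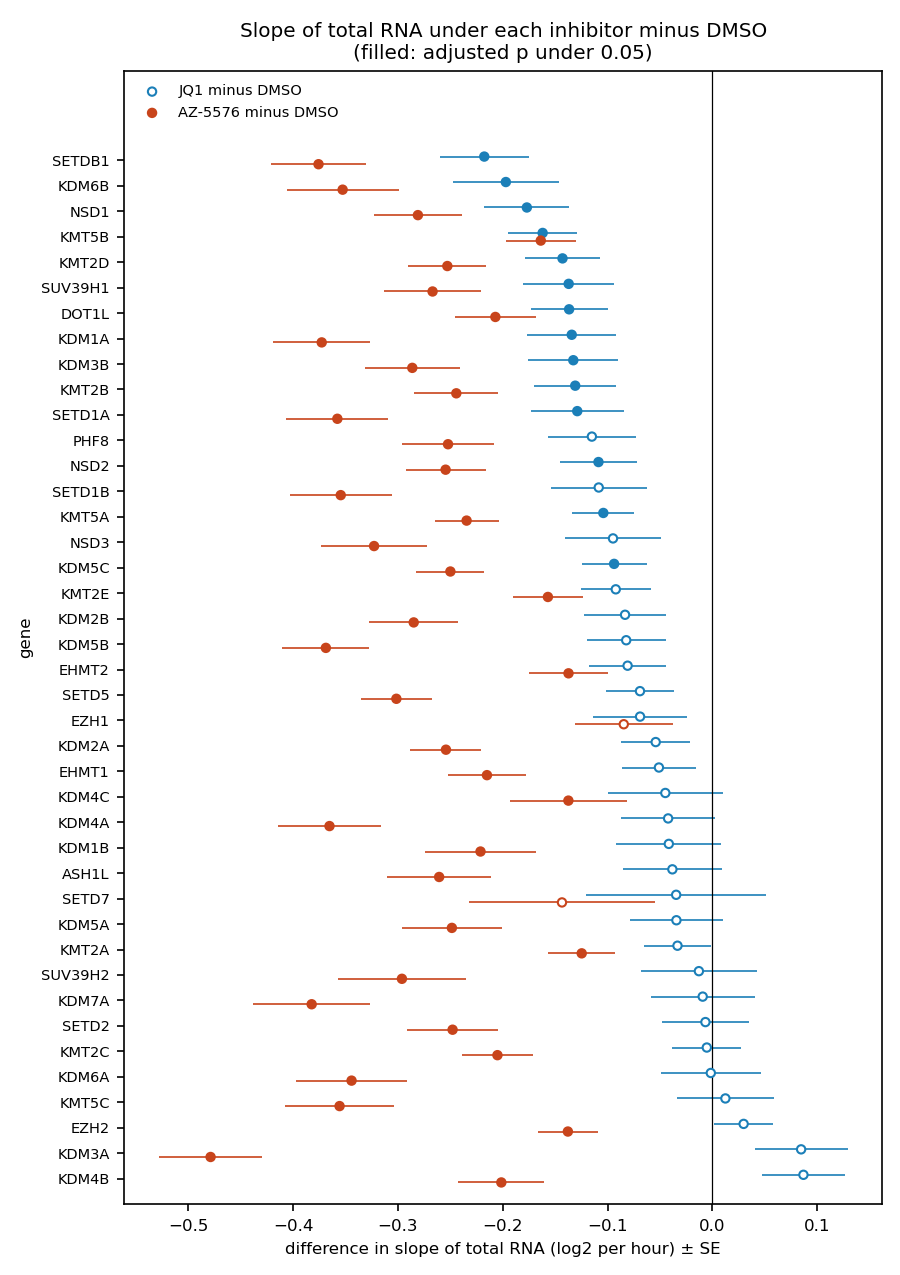
Slope of total RNA under JQ1 (blue) or AZ-5576 (orange) minus the slope with DMSO, in log2 per hour with its SE, for each gene in order of its JQ1 value; filled points have an adjusted p under 0.05. AZ-5576 values lie below 0 for all 41 genes, and JQ1 values run from -0.218 for SETDB1 to 0.087 for KDM4B.

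Among the H3K4 methyltransferases 7 of 8 members, the KMT2 and SETD1 genes but not SETD7, were lower under AZ-5576, beside 73.3% of all genes. The class median was -0.225 log2 per hour, and -0.194 over all genes. KMT2A (chr11:118436464-118526832), the gene broken in many acute leukaemias, is an activator of developmental genes. Its level was 460.2 at 0 h, 609, 705 and 755 with DMSO, 442, 618 and 687 with JQ1 and 458, 427 and 423 with AZ-5576. All 3 AZ-5576 libraries were below 0 h and all 3 DMSO libraries above it. The slope difference was -0.125 ± 0.032 log2 per hour (SE, adjusted p = 0.0013), which was lost without AZ-5576 at 8 h and was 0.0515 log2 per hour with TMM scaling. KMT2B, its paralog, had 137 at 0 h and 203, 239.7 and 263 with DMSO, against 148, 139.8 and 144 with JQ1 and 145, 103 and 74.0 with AZ-5576. The JQ1 libraries of KMT2B lay close to 0 h, and their slope was -0.131 ± 0.039 log2 per hour (SE, adjusted p = 0.023) from DMSO. A gene on the other strand, IGFLR1, covers the 3′ end of KMT2B with a mean of 54.9 reads beside 250.7, and the sources used here do not say whether counting used strand.

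KMT2C and KMT2D, which methylate H3K4 at enhancers, are given side by side. KMT2C had 599 at 0 h and 858, 612 and 616 with DMSO, whereas KMT2D had 205 and 296, 420.2 and 635. KMT2D rose at 0.178 ± 0.032 log2 per hour (SE, adjusted p = 0.00037) and KMT2C gave -0.021 ± 0.032 log2 per hour, a pair that was not tested against each other. Under JQ1 KMT2D was at 236, 269 and 297, a slope -0.143 ± 0.036 log2 per hour (SE, adjusted p = 0.0078) from DMSO, and KMT2C at 636, 642 and 628.

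SETD1A and SETD1B, which make most H3K4 trimethylation, had close slope differences under AZ-5576. SETD1B was among the 6 largest average AZ-5576 differences, with 189 at 0 h, 363, 463 and 480.3 with DMSO, 248, 206 and 359 with JQ1 and 248, 102 and 84.1 with AZ-5576. Every DMSO library was above 0 h. Intervals here and below are exact and cover counting error only. At 4 and 8 h the AZ-5576 libraries were at 22.0% (95% interval 18.3 to 26.4) and 17.5% (95% interval 14.9 to 20.5) of DMSO. The slopes differed from DMSO by -0.358 for SETD1A and -0.355 for SETD1B. KMT2E, a SET protein with little known enzyme activity, was one of the most abundant members and had a DMSO slope of -0.072 ± 0.033 log2 per hour (SE, adjusted p = 0.1). It had 1343 at 0 h, 1796, 1311 and 934 with DMSO, 1164, 817 and 676 with JQ1 and 1228, 706 and 449.7 with AZ-5576, so all arms ended below 0 h. SETD7, which also methylates proteins other than histones, had 11 to 28 total reads per library and no call in any comparison.

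The H3K9 methyltransferases held the largest JQ1 difference of the set. SETDB1 (chr1:150926263-150964744) silences retroelements and is brought to them by TRIM28. Its level was 159 at 0 h and 285, 398 and 461 with DMSO, but 171, 136 and 183 with JQ1 and 177, 116 and 63.0 with AZ-5576. The 3 DMSO libraries were all above the 3 JQ1 libraries and the 3 AZ-5576 libraries. At 8 h JQ1 was at 39.6% (95% interval 34.7 to 45.2) of DMSO and AZ-5576 at 13.7% (95% interval 11.4 to 16.3). The slope differed by -0.218 ± 0.042 log2 per hour (SE, adjusted p = 0.0012) for JQ1 and -0.376 ± 0.045 log2 per hour (SE, adjusted p = 3.1e-07) for AZ-5576. CERS2 covers the 3′ end of SETDB1 on the other strand with a mean of 1359 reads beside 334.0, and its part in these counts was not tested.

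SUV39H1 (chrX:48695554-48709012), which trimethylates H3K9 in constitutive heterochromatin, had the lowest share of its 0 h level left at 8 h of AZ-5576, 14.0% (95% interval 11.7 to 16.6). It had 491 at 0 h, 497, 428 and 327 with DMSO, 279, 234 and 183 with JQ1 and 498, 183 and 68.5 with AZ-5576. JQ1 was already at 56.3% (95% interval 49.7 to 63.7) of DMSO at 2 h, an hour at which AZ-5576 was at 100.3% (95% interval 89.7 to 112). By 8 h AZ-5576 was at 21.0% (95% interval 17.5 to 24.99). Its slope in DMSO was -0.084 ± 0.042 log2 per hour (SE, adjusted p = 0.14), the lowest of the set. SUV39H2, the paralog, averaged 61.5 beside 319, with 83.8 at 0 h, 108, 59.9 and 74.3 with DMSO and 42.6, 40.9 and 13.1 with AZ-5576.

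EHMT1 and EHMT2, which together make H3K9 dimethylation in euchromatin, were among the weaker responders. EHMT2 was one of the 3 smallest average differences for AZ-5576, at -0.53 ± 0.35 (SE, adjusted p = 0.25). Its level was 324 at 0 h, 336, 297 and 354 with DMSO, 251, 219 and 243 with JQ1 and 317, 243 and 145 with AZ-5576. The AZ-5576 and DMSO libraries overlapped, and the lower slope of -0.137 ± 0.038 log2 per hour (SE, adjusted p = 0.0025) was lost without DMSO or AZ-5576 at 8 h and was 0.0364 with TMM scaling. EHMT1 had 208 at 0 h, 247, 287 and 356 with DMSO and 204, 175 and 99.3 with AZ-5576.

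The H3K27 methyltransferases had the smallest class median under AZ-5576, -0.111 log2 per hour over 2 genes. EZH2 (chr7:148807383-148884321), the catalytic subunit of Polycomb complex PRC2 in dividing cells, was the most abundant of the 41. It had 1667 at 0 h, 1912, 2016 and 2135 with DMSO, 1675, 1965 and 2760.4 with JQ1 and 1834, 1326 and 970.4 with AZ-5576. The highest library was JQ1 at 8 h and the lowest AZ-5576 at 8 h, 129% (95% interval 124 to 135) and 45.4% (95% interval 43.1 to 47.9) of DMSO. The JQ1 slope difference was 0.030 ± 0.028 log2 per hour (SE, adjusted p = 0.49), and the AZ-5576 slope difference of -0.138 ± 0.029 log2 per hour (SE, adjusted p = 0.00019) became 0.0363 with TMM scaling and was lost without AZ-5576 at 8 h. EZH1, the other catalytic subunit, had 162 at 0 h, 198, 222 and 202 with DMSO, 144, 144 and 162 with JQ1 and 264, 176 and 110.3 with AZ-5576. At 2 h AZ-5576 was the highest EZH1 library of all. Over the 10 libraries EZH2 averaged 1826 and EZH1 178.

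All 6 H3K36 methyltransferases had lower slopes under AZ-5576, beside 73.3% of all genes. The class median was -0.271 log2 per hour, and -0.194 over all genes. NSD1 and NSD2 were lower under JQ1, beside 16.2% of all genes. SETD2, the enzyme of H3K36 trimethylation that rides on elongating polymerase, had 189 at 0 h, 441, 517 and 519 with DMSO, 361, 425 and 586 with JQ1 and 253, 257 and 141 with AZ-5576. All DMSO and JQ1 libraries were above 0 h, and JQ1 overlapped DMSO (-0.007 ± 0.042 log2 per hour, adjusted p = 0.93). NSD2, the dimethylase that is translocated in myeloma, had 393 at 0 h, 570.3, 857 and 892 with DMSO, 507, 448 and 578 with JQ1 and 521, 395 and 209.6 with AZ-5576. NSD1 had 213 at 0 h, 264, 299 and 228 with DMSO, 211, 150.2 and 94.5 with JQ1 and 205, 131 and 46.9 with AZ-5576. Among the 3 NSD genes the JQ1 course of NSD1 alone went down through the chase, to 41.4% (95% interval 34.4 to 49.8) of DMSO at 8 h. NSD3 was at 127, 124 and 216 under JQ1 from 189 at 0 h. SETD5, a SET protein whose own activity is debated, was the most abundant of the class, at 1147 at 0 h, 1707, 2228 and 2179 with DMSO and 1286, 655 and 481 with AZ-5576. ASH1L, a low-abundance H3K36 dimethylase, had 80.4 at 0 h, 103, 106 and 101 with DMSO, 129.7, 93.7 and 75.6 with JQ1 and 63.9, 54.5 and 23.7 with AZ-5576.

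DOT1L (chr19:2164149-2232578), the only H3K79 methyltransferase and a dependency of KMT2A-rearranged leukaemia, rose through the DMSO chase at 0.115 ± 0.034 log2 per hour (SE, adjusted p = 0.013). Its level was 389 at 0 h, 460.2, 589 and 818 with DMSO, 316, 399 and 400.3 with JQ1 and 504, 369.8 and 218 with AZ-5576. With JQ1 it ended near its start, at 49.0% (95% interval 44.7 to 53.6) of DMSO at 8 h and a slope -0.137 ± 0.037 log2 per hour (SE, adjusted p = 0.013) from DMSO. The average differences of the 2 inhibitors were alike in size, -0.77 ± 0.39 for AZ-5576 and -0.74 ± 0.38 for JQ1 (log2, SE), and neither passed the test. PLEKHJ1 covers its 3′ end on the other strand with a mean of 791.4 reads beside 705.7.

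Of the H4K20 methyltransferases KMT5A was abundant and KMT5C scarce. KMT5A makes the monomethyl mark that peaks in mitosis. It had 831 at 0 h, 1286, 1610.1 and 1995 with DMSO, 1039, 1004 and 1252 with JQ1 and 926, 826 and 549 with AZ-5576, with slope differences of -0.235 and -0.104 log2 per hour for AZ-5576 and JQ1. KMT5B and KMT5C, which add the next methyl groups, were not tested against each other. KMT5B went from 500.1 at 0 h to 515, 397 and 298 with JQ1 and 684, 694 and 682 with DMSO, a difference of -0.162 ± 0.033 log2 per hour (SE, adjusted p = 0.0019). KMT5C had 96.6 at 0 h, 110.1, 108 and 191 with DMSO, 95.4, 109 and 214 with JQ1 and 101, 50.4 and 20.7 with AZ-5576, and its JQ1 difference was 0.012 ± 0.046 log2 per hour (SE, adjusted p = 0.88). KMT5B was the member whose AZ-5576 and JQ1 slope differences came closest, -0.164 and -0.162.

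**Figure D3:**
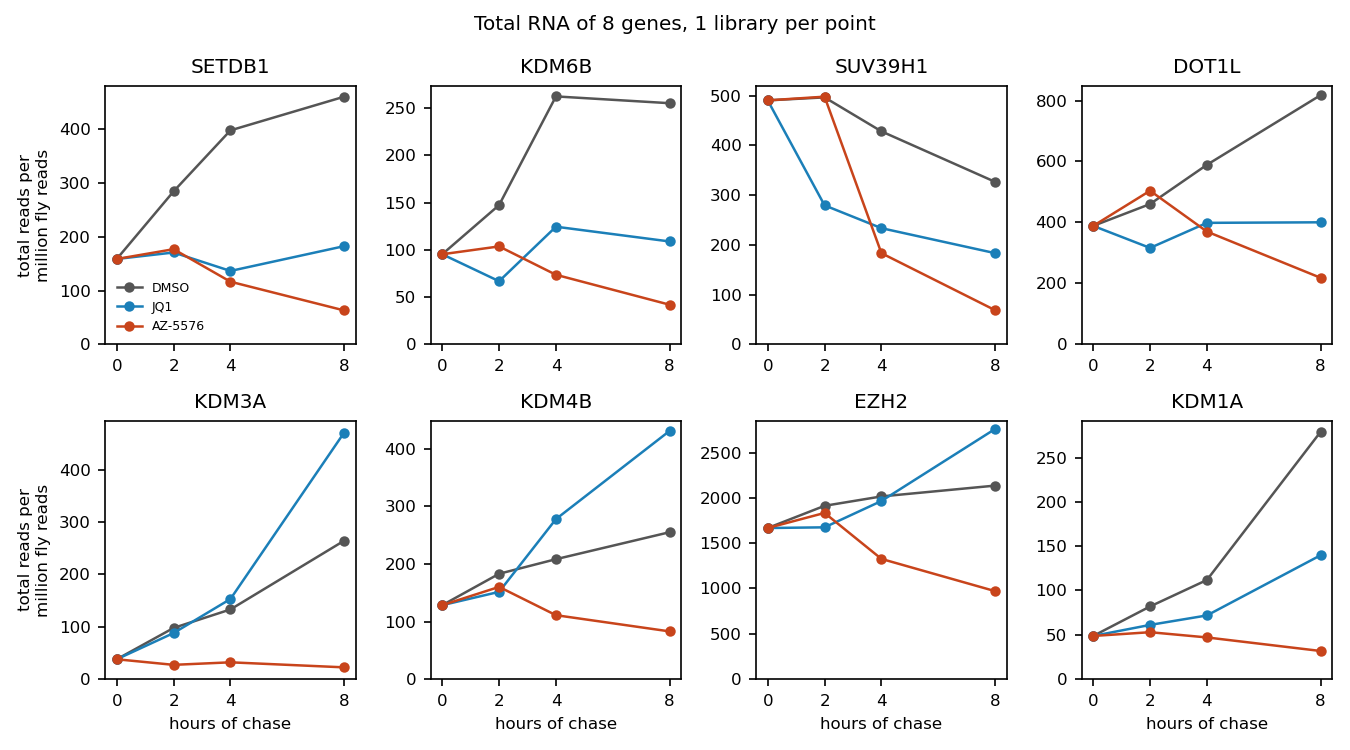
Total RNA of 8 genes over hours of chase in reads per 1000000 fly reads (linear axes from 0), with DMSO in grey, JQ1 in blue, AZ-5576 in orange, and 1 library per point. SETDB1, KDM6B and DOT1L rise with DMSO and stay low with JQ1, while KDM3A, KDM4B and EZH2 end higher with JQ1 than with DMSO.

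All 5 H3K4 demethylases had lower slopes under AZ-5576, beside 73.3% of all genes, KDM1A with the largest difference. KDM1A and KDM5C were lower under JQ1, beside 16.2% of all genes. KDM1A (chr1:23019443-23083689), the flavin oxidase LSD1 that works with CoREST, had 48.7 at 0 h, 81.9, 112 and 279 with DMSO, 61.1, 71.8 and 139.7 with JQ1 and 52.9, 47.0 and 31.7 with AZ-5576. The 3 DMSO libraries were above all AZ-5576 libraries, and at 8 h AZ-5576 was at 11.4% (95% interval 8.79 to 14.5) and JQ1 at 50.1% (95% interval 42.8 to 58.5) of DMSO. Its slope was -0.373 ± 0.046 log2 per hour (SE, adjusted p = 4.7e-07) from DMSO under AZ-5576. KDM1B, the LSD1 paralog, was at 54.1 at 0 h and 67.9, 58.5 and 85.1 with DMSO. KDM5B, a Jumonji eraser of H3K4 trimethylation, had 249 at 0 h, 340.2, 382 and 454 with DMSO, 257, 252 and 325 with JQ1 and 241, 151 and 52.0 with AZ-5576. On the same strand, the processed pseudogene AC098934.3 overlaps KDM5B, but not its 3′ end, with a mean of 836.8 reads beside 421.5. The part of AC098934.3 in the KDM5B counts was not tested. At 8 h of AZ-5576 KDM5B was at 11.5% (95% interval 9.40 to 13.9) of DMSO. Its X-linked paralog KDM5C, named for slow label loss, had 387 at 0 h, 508, 745 and 1037 with DMSO, 407, 484 and 687 with JQ1 and 387, 368 and 256 with AZ-5576. The AZ-5576 values at 8 h against 0 h were 20.8% (95% interval 16.9 to 25.6) for KDM5B and 66.1% (95% interval 58.9 to 74.3) for KDM5C, and 49.8% (95% interval 40.7 to 60.8) for KDM5A.

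KDM3A (chr2:86440647-86492716), an H3K9 demethylase known as a target of the hypoxia factor HIF, was below DMSO with AZ-5576 and, at 4 and 8 h, above it with JQ1. Its level was 37.8 at 0 h, 97.7, 133 and 264 with DMSO, 87.9, 153 and 471 with JQ1 and 27.2, 32.0 and 22.4 with AZ-5576. Every DMSO and JQ1 library was above 0 h and every AZ-5576 library below it. At 8 h AZ-5576 was at 8.48% (95% interval 6.25 to 11.3) and JQ1 at 178% (95% interval 159 to 200.01) of DMSO. Averaged over the chase, AZ-5576 was -2.37 ± 0.52 (SE, adjusted p = 0.048) from DMSO on the log2 scale, and AZ-5576 minus JQ1 was -2.75 ± 0.53 (SE, adjusted p = 0.042). It was the 1 member called in the comparison of the inhibitors, in which 1.17% of all genes were lower. Both calls were lost, with 0 members called, without DMSO at 4 or 8 h, JQ1 at 4 h or AZ-5576 at 4 h, the first also without JQ1 at 2 h and the second also without JQ1 at 8 h. Without AZ-5576 at 2 h, 18 members were lower under AZ-5576 than under JQ1, beside 31.5% of all genes. The JQ1 average of KDM3A against DMSO, 0.37 ± 0.48 (SE, adjusted p = 0.76), was not called. KDM3B, its paralog, had 88.5 at 0 h, 134, 193 and 274 with DMSO and 92.9, 126 and 141 with JQ1, a slope difference of -0.133 ± 0.043 log2 per hour (SE, adjusted p = 0.033).

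The KDM4 genes, which erase trimethylation of H3K9 and H3K36, were all lower under AZ-5576, beside 73.3% of all genes. They had no call under JQ1, where 16.2% of all genes were lower. KDM4B had the highest JQ1 value of the set. It was at 128 at 0 h, 183, 208 and 255 with DMSO, 152, 278 and 431 with JQ1 and 160.1, 111 and 82.8 with AZ-5576. JQ1 was below DMSO at 2 h and above it at 4 and 8 h, and the slope difference of 0.087 ± 0.039 log2 per hour (SE, adjusted p = 0.13) did not pass the test. KDM4A had 129 at 0 h, 229, 304 and 255 with DMSO, 151, 170.5 and 284 with JQ1 and 137, 83.1 and 40.1 with AZ-5576, and AZ-5576 at 8 h was at 15.7% (95% interval 12.5 to 19.7) of DMSO. KDM4C was the lowest of these, at 64.2 at 0 h and 51.3, 54.1 and 49.9 with DMSO.

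KDM7A and PHF8, plant homeodomain Jumonji enzymes that erase H3K9 dimethylation, both rose in DMSO. KDM7A had 46.0 at 0 h, 44.7, 62.1 and 155 with DMSO, 49.3, 47.1 and 157 with JQ1 and 31.6, 21.8 and 17.8 with AZ-5576. The step from 4 to 8 h was the largest in both the DMSO and the JQ1 arm. PHF8 had 81.1 at 0 h, 112, 149 and 238 with DMSO, 85.4, 105 and 131 with JQ1 and 67.6, 89.2 and 54.5 with AZ-5576. At 8 h JQ1 was at 55.0% (95% interval 46.6 to 64.7) of DMSO for PHF8 and at 101% (95% interval 85.4 to 120.3) for KDM7A.

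Of the H3K27 demethylases KDM6B was called lower under JQ1 and KDM6A was not, beside 16.2% of all genes. Both were lower under AZ-5576, beside 73.3% of all genes. KDM6B (chr17:7839904-7854796), the inducible member of the pair, had 95.3 at 0 h, 147, 262 and 255 with DMSO, 66.7, 124 and 109 with JQ1 and 104, 73.6 and 41.8 with AZ-5576. All DMSO libraries exceeded all JQ1 and AZ-5576 libraries. At 2 h JQ1 was at 45.3% (95% interval 35.3 to 57.9) of DMSO, and the slope difference was -0.197 ± 0.050 log2 per hour (SE, adjusted p = 0.009). That call was lost without JQ1 at 8 h, and with TMM scaling (-0.145 log2 per hour, adjusted p = 0.063). KDM6A, the X-linked eraser that is often lost in cancers, had 115 at 0 h, 91.1, 126 and 129.9 with DMSO, 84.8, 93.7 and 149 with JQ1 and 78.6, 29.3 and 22.0 with AZ-5576. JQ1 overlapped DMSO for KDM6A (-0.002 ± 0.048 log2 per hour, adjusted p = 0.99), while AZ-5576 lay below every other library from 2 h on. The difference between KDM6A and KDM6B was not tested.

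KDM2A and KDM2B, the erasers of H3K36 dimethylation, had slope differences of -0.254 and -0.285 log2 per hour under AZ-5576. Both were called, beside 73.3% of all genes, and neither was called under JQ1, beside 16.2%. KDM2B, which brings a Polycomb complex PRC1 to CpG islands, had 279 at 0 h, 309.6, 353 and 417 with DMSO, 217, 228 and 302 with JQ1 and 274, 179 and 73.5 with AZ-5576. RNF34 overlaps its 3′ end on the other strand with 396.6 reads on average beside 410.5. KDM2A had 502 at 0 h and 693, 544 and 575 with DMSO.

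The labelled reads are taken to follow RNA made before the chase. They were lost in DMSO for 36 of the 40 members tested, beside 88.3% of all 8817 genes. The median slope was -0.274 log2 per hour, and -0.223 over all genes. The loss was not seen at 2 h. There the median log2 ratio to 0 h was 0.030 over members, with 19 of 40 below 0, and 0.091 over all genes. At 4 and 8 h the member medians were -0.80 and -2.12. Why the label had not fallen by 2 h was not tested. Growth of the culture also thins the label, so a label half-life, the time for labelled reads to fall by 50%, can be shorter than the decay time of the RNA alone. SUV39H1 was the fastest, at -0.820 ± 0.063 log2 per hour (SE, adjusted p = 1.9e-36), a label half-life of 1.22 h. KMT5C (1.75 h), KMT2E (1.82 h), ASH1L (1.84 h) and KDM2A (1.87 h) came next, and these 4 do not differ from each other beyond their SE of 0.042 to 0.095 log2 per hour. These half-lives come from the fitted line. At 2 h with DMSO, past its fitted half-life, each of these genes, SUV39H1 included, still held more than 50% of its labelled 0 h level. The half-lives thus summarise the whole chase and do not describe its first 2 h. Without the 8 h DMSO library 21 members were called, beside 38.05% of all genes. With TMM scaling 18 were lower than the typical gene and 4 higher, beside 26.3% and 22.9% of all genes.

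Labelled SUV39H1 was at 209 at 0 h and 146, 38.7 and 1.70 with DMSO, 117, 66.3 and 6.30 with JQ1 and 220.4, 74.9 and 21.1 with AZ-5576. The 8 h DMSO value rests on 3 reads, so its size is loose: it was 0.815% (95% interval 0.167 to 2.403) of 0 h. Labelled KMT2E had 750.1 at 0 h, 585, 199 and 39.1 with DMSO, 448, 191 and 42.4 with JQ1 and 549, 277 and 117 with AZ-5576. Its 8 h DMSO value rests on 69 reads. Labelled KMT5C went from 43.2 to 28.1, 8.77 and 1.70 with DMSO, 26.8, 13.7 and 9.16 with JQ1 and 44.1, 10.9 and 8.03 with AZ-5576. Labelled ASH1L went from 47.3 to 30.6, 10.96 and 2.27, 39.3, 14.8 and 2.29 and 20.6, 10.9 and 8.03 in the same order. At 8 h these values of KMT5C and ASH1L rest on 3 to 19 reads.

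At the slow end were 4 demethylases. Labelled KDM1A was 13.5 at 0 h and 22.3, 20.5 and 19.8 with DMSO, and its slope was 0.030 ± 0.075 log2 per hour (SE, adjusted p = 0.7). For KDM3A the labelled level was 21.6 at 0 h and 24.8, 18.3 and 17.0 with DMSO (-0.053 ± 0.072 log2 per hour, adjusted p = 0.47). Both are low counts, 20 and 32 labelled reads at 0 h. Labelled PHF8 had 42.6 at 0 h and 62.1, 54.8 and 35.2 with DMSO, a slope of -0.057 ± 0.053 log2 per hour (SE, adjusted p = 0.3). These 3 and KDM4C (-0.148 ± 0.080 log2 per hour, adjusted p = 0.07) were the 4 without a call. Labelled KDM5C, with more reads, was at 199 at 0 h and 236, 197 and 115 with DMSO, a fitted -0.124 ± 0.039 log2 per hour (SE, adjusted p = 0.0023) or 8.06 h. With TMM scaling the slopes of KDM5C, KDM3A and PHF8 were above that of the typical gene, at 0.0889, 0.1558 and 0.1546 log2 per hour.

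By class the H3K36 demethylases, 2 genes, lost their label fastest, with a median of -0.421 log2 per hour, then the H3K36 methyltransferases (-0.395) and the H3K4 methyltransferases (-0.383). The H3K4 demethylases (-0.149) and the H3K9 demethylases (-0.190) had the slowest medians. The H3K4 demethylases were mixed, from KDM1A without a called loss to KDM5B at 2.42 h. Their middle gene, KDM1B, kept its call in 6 of the 10 fits that left out 1 library. Paralogs are given side by side. KDM2A had 1.87 h beside 3.26 h for KDM2B, KMT2C 2.31 h beside 4.78 h for KMT2D, and KMT5C 1.75 h beside 3.87 h for KMT5B. NSD1 had 2.32 h, NSD3 2.79 h and NSD2 5.27 h, while KDM5B had 2.42 h, KDM5A 2.99 h and KDM5C 8.06 h. EHMT1 and EHMT2 were close, at 4.45 and 4.04 h, as were SETD1A and SETD1B, at 2.68 and 2.92 h. None of these pairs was tested. The 10 members with the Pumilio octamer, of which 6 have sites printed, had a median of -0.378 log2 per hour (range -0.550 to -0.209), and the 20 tested members whose transcript end lacked it -0.238 (-0.820 to -0.057). SUV39H1, the fastest, was among the 20, and the ranges overlap. The 6 with the AU-rich heptamer had a median of -0.200, beside the -0.349 of the 24 without it.

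**Figure D4:**
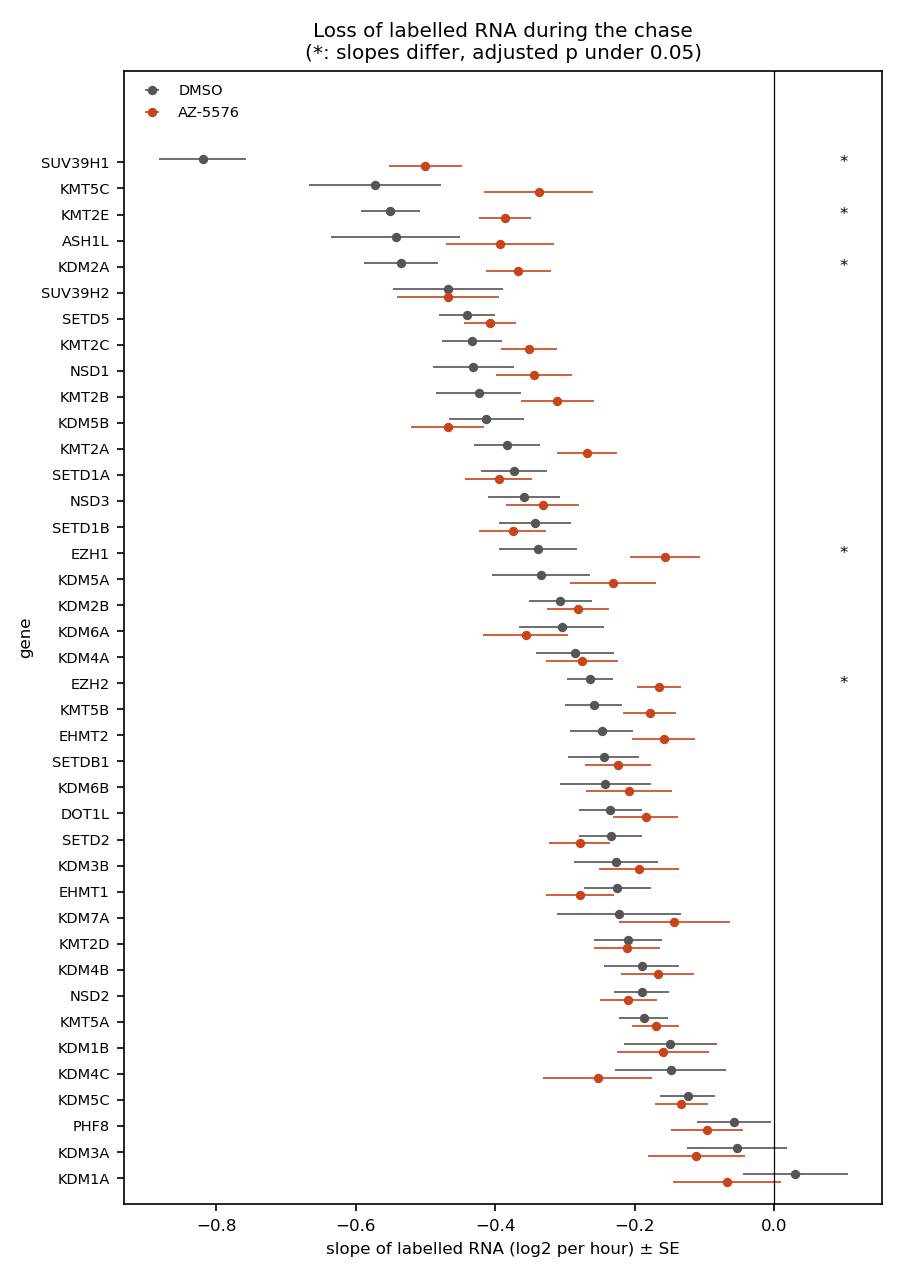
Slope of labelled RNA in log2 per hour with its SE for 40 genes, with DMSO (grey) and AZ-5576 (orange); an asterisk marks the 5 genes whose slopes differ with an adjusted p under 0.05. SUV39H1 has the lowest DMSO slope, -0.820, and KDM1A the highest, 0.030.

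Under AZ-5576 the label was lost more slowly for 5 of 40 members and faster for none, beside 3.53% of all genes with slower loss. They were SUV39H1 (0.320 ± 0.062 log2 per hour, adjusted p = 9.8e-05), KMT2E (0.165 ± 0.039 log2 per hour, adjusted p = 0.0021), EZH1 (0.183 ± 0.054 log2 per hour, adjusted p = 0.027), KDM2A (0.168 ± 0.052 log2 per hour, adjusted p = 0.035) and EZH2 (0.099 ± 0.032 log2 per hour, adjusted p = 0.049). The fitted label half-life of SUV39H1 was 2.00 h with AZ-5576, that of EZH1 6.41 h beside 2.95 h with DMSO, and that of EZH2 6.06 h beside 3.79 h. Both catalytic subunits of PRC2 were among the 5. Labelled EZH2 was at 1105 at 0 h, 962, 606 and 273 with DMSO, 878, 640.3 and 394 with JQ1 and 1073, 767 and 486 with AZ-5576. Labelled EZH1 was at 78.4 at 0 h, 84.4, 45.3 and 15.3 with DMSO, 53.0, 46.0 and 16.6 with JQ1 and 126, 69.5 and 43.1 with AZ-5576. At each hour of both genes the AZ-5576 library was the highest. The median over all 40 members, 0.026 log2 per hour, was near that over all genes, 0.030.

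None of the 5 kept its call whichever library was left out. The count was 0 without DMSO at 8 h, 1 without AZ-5576 at 8 h, 2 without AZ-5576 at 4 h, and 3 without DMSO at 4 h, AZ-5576 at 2 h or any 1 JQ1 library. The shares of all genes with slower loss were 0.023%, 0.068% and 2.08% in the first 3 fits and 2.22% to 2.46% in the rest. SUV39H1 lost its call only without DMSO at 8 h. KMT2E kept its call in 8 of the 10 fits, EZH1 in 5, KDM2A in 4 and EZH2 in 2. JQ1 changed no label slope by edgeR (0 of 40, beside 0.318% of all genes with slower loss), with 5 members at an unadjusted p under 0.05 and 0 by DESeq2. Its lowest value was -0.176 ± 0.073 log2 per hour (SE, adjusted p = 0.42) for KDM6B and its highest 0.236 ± 0.1003 log2 per hour (SE, adjusted p = 0.46) for KMT5C.

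**Figure D5:**
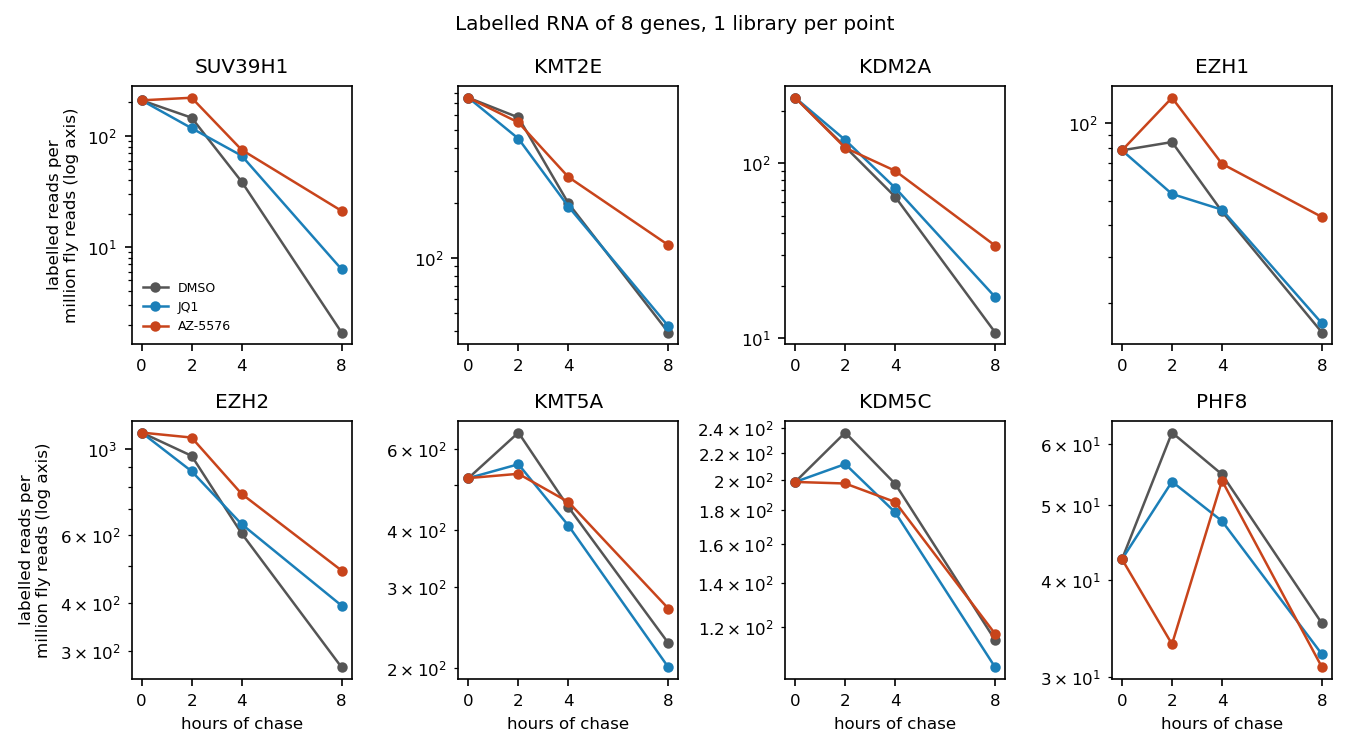
Labelled RNA of 8 genes over hours of chase in reads per 1000000 fly reads (log axes), with DMSO in grey, JQ1 in blue, AZ-5576 in orange, and 1 library per point. For SUV39H1, KMT2E, KDM2A, EZH1 and EZH2 the AZ-5576 line ends above the DMSO line at 8 h, while for KMT5A, KDM5C and PHF8 the 8 h points of the 3 arms lie near each other.

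The share of a gene's reads that carried the label at 0 h depends on how much of its RNA had been made within the 12 h pulse and on how completely labelled reads were recognised. Over the 40 members with at least 50 reads its median was 55.6%, beside 51.6% of all such genes, and 27 of 40 were above that. KDM6A had the highest share, 77.6% (95% exact interval 70.6 to 83.7, 132 of 170 reads), next to 77.5% (95% exact interval 66.8 to 86.1, 62 of 80 reads) for KDM1B and 75.8% (95% exact interval 67.3 to 83.0, 94 of 124 reads) for SUV39H2. KDM1A had the lowest, 27.8% (95% exact interval 17.9 to 39.6, 20 of 72 reads). DOT1L was also low at 29.6% (95% exact interval 25.9 to 33.5, 170 of 575 reads). SUV39H1, the fastest to lose its label, was below the median at 42.6% (95% exact interval 38.9 to 46.3, 309 of 726 reads), and KMT5C at 44.8% (95% exact interval 36.4 to 53.3, 64 of 143 reads). At 8 h the member median was 6.57% with DMSO, 8.77% with JQ1 and 36% with AZ-5576 (40, 40 and 37 members with at least 50 reads), and all genes had 9.17%, 11.4% and 41.5%. For SUV39H1 it was 0.521% (95% exact interval 0.108 to 1.51, 3 of 576 reads) with DMSO and 30.9% (95% exact interval 23.9 to 38.6, 50 of 162 reads) with AZ-5576.

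Reads without the label hold RNA made in the chase, together with older RNA that missed it. With DMSO the unlabelled KDM3A level went from 16.2 at 0 h to 72.8, 115 and 247, and with AZ-5576 it was 16.9, 17.0 and 8.03. Unlabelled SETDB1 went from 49.3 to 161, 327 and 431 with DMSO, 95.4, 68.5 and 152 with JQ1 and 73.5, 47.7 and 24.5 with AZ-5576. At 8 h the JQ1 value of SETDB1 lay between those of the other arms. Unlabelled EZH2 went from 562.2 to 950.3, 1409.8 and 1862 with DMSO, 797, 1325 and 2366 with JQ1 and 761, 559 and 485 with AZ-5576. At 8 h EZH2 was higher with JQ1 than with DMSO both in these reads and in the labelled ones given above. For SUV39H1 the unlabelled level under AZ-5576 was 278, 108 and 47.3 after 282 at 0 h, so these reads too ended below their 0 h level.

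The partners of these enzymes, from lists of complex subunits and related SET and Jumonji genes, are given by list. Of 84 genes listed 83 were found and 75 tested. Under AZ-5576 72 of 75 had lower slopes with a median of -0.248 log2 per hour, beside 73.3% of all genes. Under JQ1 19 were lower and 4 higher, with a median of -0.077, beside 16.2% and 1.79% of all genes. In DMSO 32 of 75 rose, beside 24.5% of all genes, and 65 of the 71 tested lost label, beside 88.3%. Of the PRC2 partners 8 of 9 were lower under AZ-5576: EED, which reads H3K27 trimethylation, at -0.468 ± 0.047 log2 per hour, and SUZ12 at -0.209 ± 0.035, with PHF1 (-0.036 ± 0.043) the exception. Under JQ1 1 of these 9 was lower, PHF19, at -0.177 ± 0.027. Of 13 COMPASS partners, proteins of or bound to the KMT2 and SETD1 complexes, all 13 were lower under AZ-5576 and 3 under JQ1 (NCOA6, HCFC1 and PAXIP1), with 1, PSIP1, higher at 0.117 ± 0.040. WDR5 in that core had -0.298 ± 0.038 with AZ-5576 and -0.094 ± 0.036 with JQ1.

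Among 11 LSD1-CoREST partners 10 were lower under AZ-5576 and 4 under JQ1, beside 73.3% and 16.2% of all genes. The same shares stand beside the counts of lower slopes for the lists that follow. GFI1B, the erythroid repressor that recruits LSD1, had the lowest JQ1 value of the list, -0.347 ± 0.066, and lost its label at -0.659 ± 0.060 log2 per hour. Of 10 readers of methylated H3K9 and SETDB1 partners 10 were lower under AZ-5576 and 1 under JQ1, with the HP1 gene CBX5 higher at 0.097 ± 0.033. Of 16 PRC1 genes 15 were lower under AZ-5576, CBX8 most at -0.797 ± 0.070, and under JQ1 4 were lower and 1 higher. The 16 other SET and Jumonji genes were all lower under AZ-5576, RIOX1 most at -0.876 ± 0.079. Under JQ1 6 of these were lower, PHF2 most at -0.273 ± 0.050, and 1, PRDM2, was higher at 0.178 ± 0.045. In the labelled reads 2 of 71 partners lost label faster with AZ-5576 than with DMSO, among them RIOX1 at -0.359 ± 0.083, beside 1.22% of all genes, and none was called slower, beside 3.53%.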

How the data were processed

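The submitters measured RNA in 10 libraries of K562 cells, 1 per condition, by 3′ end sequencing after 4-thiouridine labelling (SLAM-seq). The authors deposited raw counts per gene of total reads, of labelled reads (called nascent by them) and of fly reads. The submitters' processing notes name bcl2fastq 2.17.1.14, Trim Galore 0.6.5, bedtools and the builds hg38 and dm6; the aligner, the counter, the annotation and the rule that calls a read labelled are not given in the sources used here.

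From these counts, edgeR 4.0.16 in R 4.3.3 fitted quasi-likelihood models with the summed fly reads as library size, keeping genes that averaged 20 reads or more (11797 for total and 8817 for labelled reads). Two-sided tests were adjusted by Benjamini and Hochberg over all genes tested and called at 0.05. Slope models had 6 and mean models 4 residual degrees of freedom. Unlabelled reads are total minus labelled reads. Log2 ratios of single libraries used a pseudocount of 0.5. Reads whose gene identifier had no symbol in the name table made up 0.249% of human reads. The models were also run on simulated data with known changes, whose scatter was set below that of the real data in the mean model. That run is not used as support here.

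Alternatives were TMM and DESeq2 size factors of human reads, TMM-adjusted fly totals, DESeq2 1.42.0, no count filter, only the arms compared, and each library left out. Leaving out all libraries of 1 hour was added after seeing the data. Genes given with every library were the 6 largest and 3 smallest average AZ-5576 differences, the 4 lowest and 4 highest for JQ1, the 4 fastest and 4 slowest label losses, and a panel of well-studied members. Paralogs were set side by side. The members and lists were chosen with earlier results of these data known. The values of 1 partner gene are not reported here.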

Additional observations from a re-analysis of the deposited data

Results flagged for a closer look

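KDM3A was marked because the effects of the 2 inhibitors on its total RNA differed in a test of the difference itself: AZ-5576 minus JQ1 was -2.75 ± 0.53 on the log2 scale (SE, adjusted p = 0.042 by edgeR's quasi-likelihood test), with averages of -2.37 for AZ-5576 and 0.37 for JQ1 against DMSO. All 3 AZ-5576 libraries were below all 3 JQ1 libraries. The call was lost in 5 of the 10 fits that left out 1 library (without DMSO at 4 or 8 h, JQ1 at 4 or 8 h, or AZ-5576 at 4 h).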

How the results depend on the processing

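Counts below are of members called, against the reported count. Percentages in brackets are the shares of all genes called in the same direction by the same fits. For the average AZ-5576 difference (1 lower), TMM-adjusted fly totals gave 0 (1.26%), DESeq2 29 (35.3%) and no count filter 17 (11.5%). The compared arms alone gave 7 (14.1%), and leaving out 1 library 0 to 37 (0.0085% to 57.6%). For the average JQ1 difference (0 lower), the arms alone gave 20 (20.7%) and leaving out 1 library 0 to 5 (0% to 6.21%). For AZ-5576 minus JQ1 (1 lower), DESeq2 gave 5 (10.2%), no filter 2 (4.36%), the arms alone 0 (0.11%) and leaving out 1 library 0 to 18 (0.059% to 31.5%). For the AZ-5576 slope (39 lower), TMM scaling gave 22 (27.6%), DESeq2 size factors 18 (24.6%) and leaving out 1 library 28 to 40 (33.3% to 75.6%). For the JQ1 slope (14 lower), TMM gave 5 (7.7%) and DESeq2 size factors 4 (6.6%). Leaving out all 4 h libraries gave 3 (7.62%), all 8 h libraries 5 (5.43%) and 1 library 2 to 16 (1.44% to 20.7%). For the DMSO slope (20 higher), DESeq2 size factors gave 11 (14.8%), no 8 h libraries 8 (7.05%) and leaving out 1 library 6 to 25 (3.88% to 30.2%). For label loss in DMSO (36 lower), TMM and DESeq2 size factors both gave 18 (26.3% and 24.96%). No 8 h libraries gave 11 (14%), and leaving out 1 library 21 to 37 (38.05% to 91.9%). For slower label loss with AZ-5576 (5 higher), no filter gave 2 (0.81%) and the arms alone 2 (1.42%). No 4 h libraries gave 1 (0.26%), no 8 h libraries 0 (0%) and leaving out 1 library 0 to 6 (0.023% to 7.08%). The JQ1 label slope had 0 in every fit run. With TMM, the median log2 ratios over members at 2, 4 and 8 h were -0.17, -0.41 and -0.61 for AZ-5576 and -0.0909, -0.33 and -0.10 for JQ1. TMM and DESeq2 size factors set the typical gene near 0, which turned the AZ-5576 slope differences of KMT2A (0.0515 and 0.0637), KMT2E (0.0192 and 0.0312), EHMT2 (0.0364 and 0.0488), EZH1 (0.0872 and 0.0995) and EZH2 (0.0363 and 0.0486). The same 2 scalings turned the label slopes of NSD2 (0.0250 and 0.0311), KMT5A (0.0278 and 0.0340), KDM5C (0.0889 and 0.0950), KDM3A (0.1558 and 0.1620), KDM4B (0.0243 and 0.0304) and PHF8 (0.1546 and 0.1608). Of 4050 values of single genes under an alternative, 3492 kept direction and side of the threshold, 215 fell below the threshold and 143 passed it. The others changed sign, 178 with no call in either fit and 22 with a call in at least 1 of them. Other causes were not tested. Depth limits the labelled values at 8 h most, where SUV39H1 had 3 reads with DMSO. No paired analysis was possible because each condition has 1 library and the labels give no replicate numbers.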
